A study of Mus musculus with 24 samples.

Results

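The 9 genes described here encode proteins that bind mature messenger RNA and set how long it lasts or how well it is translated: the DAZ family members Dazl and Boll, the polyadenylation element binder Cpeb1, the Pumilio protein gene Pum2, the Musashi genes Msi1 and Msi2, Elavl1, which encodes HuR, and the tristetraprolin genes Zfp36 and Zfp36l1. They were chosen by exact gene symbol, 9 of 52323 rows in the tables of total and nascent RNA. The study compared cells of the mouse testis as they enter and pass through meiotic prophase, by total RNA and by RNA newly made during a pulse of 5-ethynyl uridine (EU), a uridine analogue that is captured by click chemistry. All animals were wild-type NMRI mice whose spermatogenesis had been synchronised with WIN18,446, which blocks retinoic acid synthesis, followed by retinoic acid. At 24 days after birth each received 2 mg of EU, and 3 hours later cells were sorted by DNA content into spermatogonia (the mitotic germ cells), leptotene spermatocytes (the first stage of meiotic prophase) and pachytene spermatocytes (the long later stage with synapsed chromosomes). Each assay also had 1 library labelled preleptotene, the stage of premeiotic DNA replication, a population that the sorting protocol does not list.

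In both assays 12 libraries were made. Spermatogonia gave 3 libraries (2 animals), leptotene spermatocytes 4 (3 animals), pachytene spermatocytes 4 (2 animals) and preleptotene cells 1. The total and nascent libraries came from different animals, IND1 to IND4 and IND5 to IND8. Replicates are animals: where an animal gave several libraries at 1 stage, their values were averaged before means and standard deviations (SD) were taken. Levels are in FPKM, fragments per kilobase of transcript scaled to library size, as the authors deposited them. Differences are on the log2(FPKM + 1) scale, which shrinks the change of weakly expressed genes, and are given with their standard error after the sign. Tests are two-sided limma tests with Benjamini-Hochberg adjustment over all genes tested, 19202 in total and 16375 in nascent RNA, and a gene is called changed at an adjusted p under 0.05. All 9 genes passed the filter on low values in both assays.

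DAZL and BOLL share an RNA recognition motif and a DAZ repeat, and they promote translation of germ cell mRNAs through poly(A)-binding protein. CPEB1 binds U-rich cytoplasmic polyadenylation elements and mouse spermatocytes and oocytes need it for the synaptonemal complex. Pumilio proteins bind an 8-base element in 3′UTRs and recruit deadenylases, Musashi proteins bind short UAG-containing sites and are best known from stem cells, and HuR and the ZFP36 proteins bind overlapping AU-rich elements with opposite usual outcomes: HuR stabilises the mRNA and ZFP36 proteins trigger its deadenylation and decay.

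Several facts about the libraries bear on what follows. Leptotene library 2 stood apart in both assays: over all genes its rank correlation in total RNA was 0.874 to 0.904 with pachytene libraries and 0.528 to 0.569 with the other leptotene libraries, and its summed level of 7 pachytene markers was 634 FPKM, against 16.4 to 33.3 in the other 3. Leptotene library 3 lay between stages in total RNA, with correlations of 0.739 to 0.853 with spermatogonia. Its correlation was 0.851 with preleptotene and 0.528 (library 2) to 0.846 with the other leptotene libraries. Results are therefore also given without these 2 libraries. Spike-in RNA, added after extraction, made up 2.49% to 8.19% of summed FPKM in total libraries and 5.01% to 76.5% in nascent libraries, so nascent FPKM of all genes move with that share. No read depth could be recovered from the values, because at best 40.2% to 50.1% of the smallest values came within 0.05 of a whole number of reads. In bulk libraries, fewer cells of a type and less RNA per cell cannot be told apart.

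The AU-rich core TATTTAT, the DNA spelling of the site that ZFP36 proteins bind, occurs in the 3′UTR of all 9 genes, on the sense strand of the longest protein-coding transcript in GENCODE M21. It is in 29.0% of 19921 genes and its frequency rises with 3′UTR length. Among 3′UTRs of a length similar to the member's, the share with at least 1 ran from 19.7% (Zfp36) to 68.9% (Msi2). Zfp36 carries 3 copies in 774 bases, where 19.7% of 3′UTRs of similar length (0.8 to 1.25 times) hold at least 1. Zfp36l1 carries 3 in 1835 bases (38.8% of similar length hold at least 1) and Elavl1 carries 8 in 4218 bases (61.5%), overlapping copies counted separately. These sites are shown because the 2 genes encoding ZFP36 proteins, and the gene of their competitor HuR, carry the element in their own mRNAs; the core is in capitals.
Zfp36 site 1: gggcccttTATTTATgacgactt
Zfp36 site 2: gacgacttTATTTATtgtattaa
Zfp36 site 3: ttttatagTATTTATatatattg
Zfp36l1 site 1: tcaaaacgTATTTATtgccaaac
Zfp36l1 site 2: tttgttcaTATTTATcgggatga
Zfp36l1 site 3: tgttggatTATTTATtttagaaa
Elavl1 first site: atgaaaatTATTTATttatttat
Elavl1 last site: tatttattTATTTATtacttgtg
The Pumilio element TGTANATA occurs in 4 of the 9 genes, with 1 copy in Cpeb1, 2 in Pum2, 1 in Msi1 and 3 in Msi2, and it is in 24.4% of all genes. Among 3′UTRs as long as those of Pum2 and Msi2, 43.9% and 62.8% hold at least 1. Pum2 therefore carries the element of its own protein family, shown here with the element in capitals.
Pum2 site 1: tatagagaTGTATATAgaattata
Pum2 site 2: tacagaatTGTATATActtataat
A match is a description of the letters and not evidence that a protein binds there.

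Promoter windows of 300 bases, from 250 before to 50 after the start site, were in the RefSeq table (GRCm38.p6) for 8 of the 9 genes. The windows were searched on both strands for the CArG box (the serum response factor site), the cyclic AMP element TGACGTCA, the E-box CACGTG, the MYB core CAGTTG, the STRA8 site CNCCTCAG and the NRF1 half-site TGCGCA. Those motifs occur in 1.63%, 1.79%, 7.15%, 13.7%, 7.94% and 7.76% of 32851 promoters. The windows below belong to 5 genes, the DAZ pair, Cpeb1 and the ZFP36 pair, which were chosen for display after their values were seen; every match is in capitals.
Zfp36, chr7:28379179-28379478, minus strand: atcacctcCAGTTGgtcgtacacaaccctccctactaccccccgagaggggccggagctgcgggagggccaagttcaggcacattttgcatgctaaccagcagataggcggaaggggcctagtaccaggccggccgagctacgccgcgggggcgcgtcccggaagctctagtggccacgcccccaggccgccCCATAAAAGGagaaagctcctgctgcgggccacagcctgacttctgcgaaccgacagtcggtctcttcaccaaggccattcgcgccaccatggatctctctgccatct
Zfp36l1, chr12:80112964-80113263, minus strand: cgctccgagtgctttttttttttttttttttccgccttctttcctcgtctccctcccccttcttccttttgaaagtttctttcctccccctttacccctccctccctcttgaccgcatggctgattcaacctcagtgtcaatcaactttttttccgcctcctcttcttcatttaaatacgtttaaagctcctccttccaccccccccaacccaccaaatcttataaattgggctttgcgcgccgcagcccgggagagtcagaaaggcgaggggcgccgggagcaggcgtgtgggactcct
Dazl, chr17:50293571-50293870, minus strand: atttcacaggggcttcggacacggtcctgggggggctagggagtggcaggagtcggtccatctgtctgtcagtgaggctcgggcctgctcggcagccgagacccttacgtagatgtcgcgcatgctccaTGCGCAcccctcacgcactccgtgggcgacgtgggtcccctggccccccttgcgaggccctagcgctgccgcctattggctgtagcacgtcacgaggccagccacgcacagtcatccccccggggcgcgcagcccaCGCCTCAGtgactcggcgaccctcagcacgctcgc
Boll, chr1:55363704-55364003, minus strand: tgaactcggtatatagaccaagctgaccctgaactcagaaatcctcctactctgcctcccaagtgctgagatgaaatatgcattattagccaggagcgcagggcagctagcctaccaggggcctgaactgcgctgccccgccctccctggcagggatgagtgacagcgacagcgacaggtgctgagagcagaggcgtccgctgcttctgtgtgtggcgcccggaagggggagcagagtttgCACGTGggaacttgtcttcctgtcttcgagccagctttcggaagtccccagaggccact
Cpeb1, chr7:81454709-81455008, minus strand: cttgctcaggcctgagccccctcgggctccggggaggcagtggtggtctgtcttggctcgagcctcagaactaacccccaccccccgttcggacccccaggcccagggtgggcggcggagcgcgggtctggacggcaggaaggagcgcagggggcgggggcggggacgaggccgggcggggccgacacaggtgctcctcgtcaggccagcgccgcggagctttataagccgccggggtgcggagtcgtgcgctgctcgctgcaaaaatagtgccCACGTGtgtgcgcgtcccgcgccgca
The Zfp36 window holds a CArG box, CCATAAAAGG, at -58 to -49 from the start site and a MYB core at -242. The Zfp36l1 window held none of the 6 motifs. In Dazl the STRA8 site, read as CGCCTCAG, lies at 15 to 22 bases after the start and the NRF1 half-site at -121. The Boll window printed has an E-box at -9; the table lists another Boll start site, whose window at chr1:55362679-55362978 holds none of the 6 motifs. Cpeb1 has an E-box at 24 bases after the start.

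Between spermatogonia and pachytene in total RNA, Zfp36, Zfp36l1, Msi2 and Cpeb1 fell, Boll and Elavl1 rose, and Dazl, Pum2 and Msi1 did not pass the test. In total RNA, 4 of the 9 were lower in leptotene than in spermatogonia and none was higher; of all genes tested, 9.81% were called, 9.52% lower and 0.286% higher. From leptotene to pachytene 3 were lower and 1 higher, where 40.2% of all genes were called (17.7% lower and 22.4% higher). From spermatogonia to pachytene 4 were lower and 2 higher, where 52.8% were called (29.7% lower and 23.1% higher). In nascent RNA 2 were lower in leptotene than in spermatogonia (10.6% of all genes called, 9.90% lower and 0.696% higher). Between leptotene and pachytene 2 fell in nascent RNA (31.2% called, 15.4% lower and 15.8% higher), and from spermatogonia to pachytene 3 fell and 1 rose (43.5% called, 27.9% lower and 15.6% higher). The median difference of the 9 in total RNA was -0.05 in the first comparison, -0.77 in the second and -0.92 in the third, beside medians of -0.07, -0.07 and -0.14 over all genes. Without leptotene libraries 2 and 3, the counts in total RNA were 5, 5 and 8 of 9, while 27.0%, 57.3% and 62.7% of all genes were called. In nascent RNA they were 3, 4 and 5 of 9, while 33.8%, 48.6% and 51.3% of all genes were called.

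**Figure D1:**
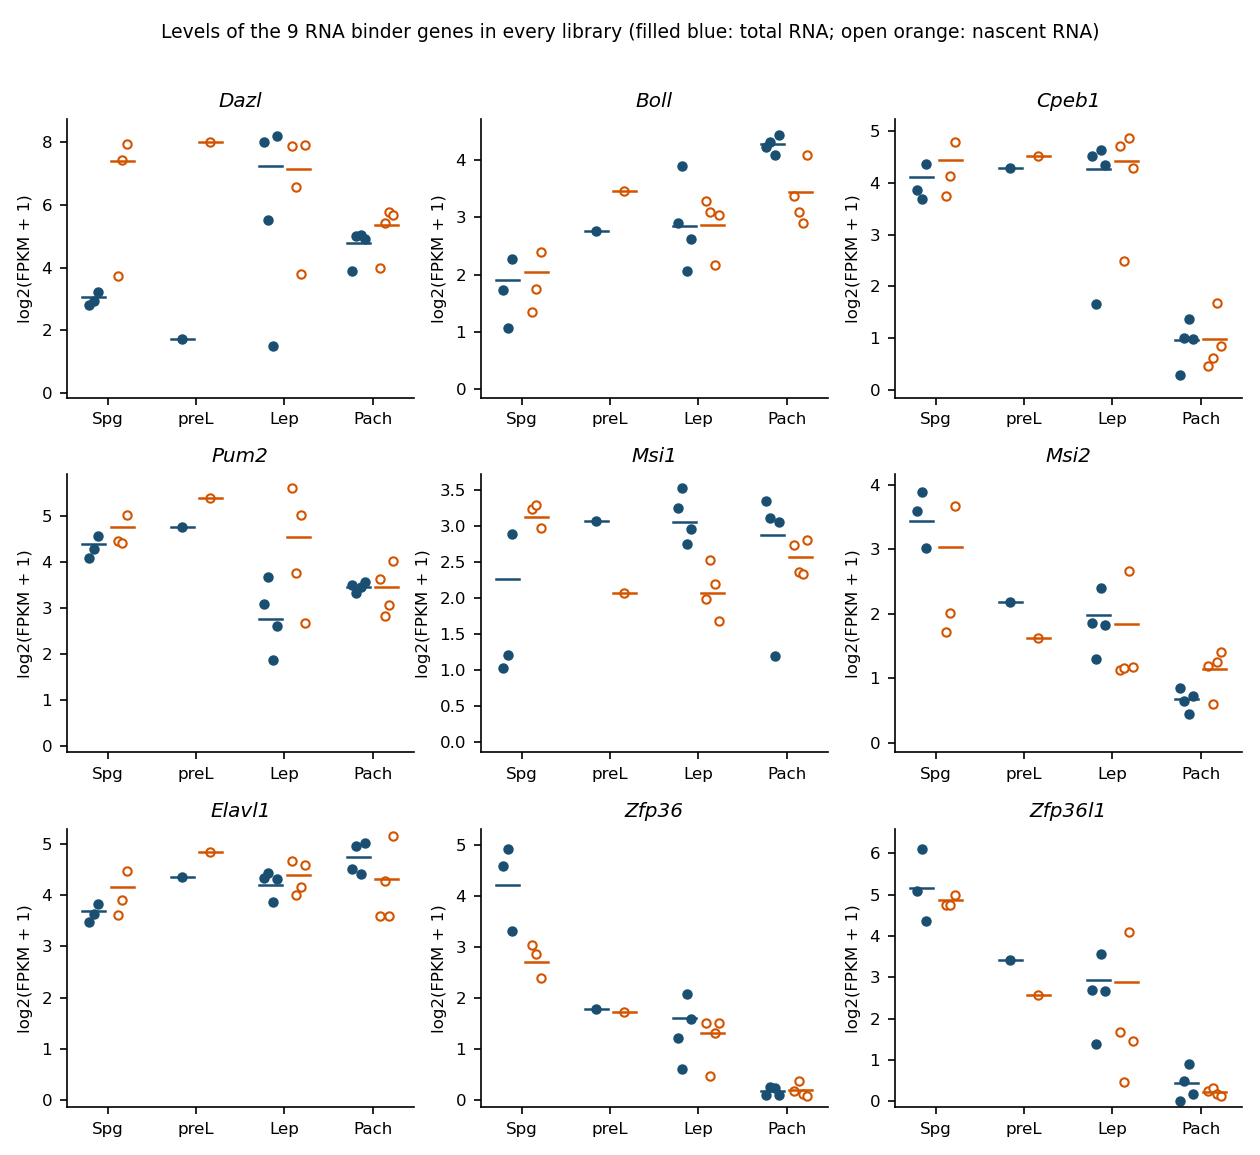
Level of each of the 9 genes as log2(FPKM + 1) in every library of spermatogonia (Spg), preleptotene (preL), leptotene (Lep) and pachytene (Pach); points are libraries and bars the mean FPKM over animals on that scale. Zfp36, Zfp36l1, Msi2 and Cpeb1 sit near the bottom in pachytene, Boll and Elavl1 rise in total RNA, and the leptotene libraries of Dazl span 1.80 to 294 FPKM in total RNA.

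**Figure D2:**
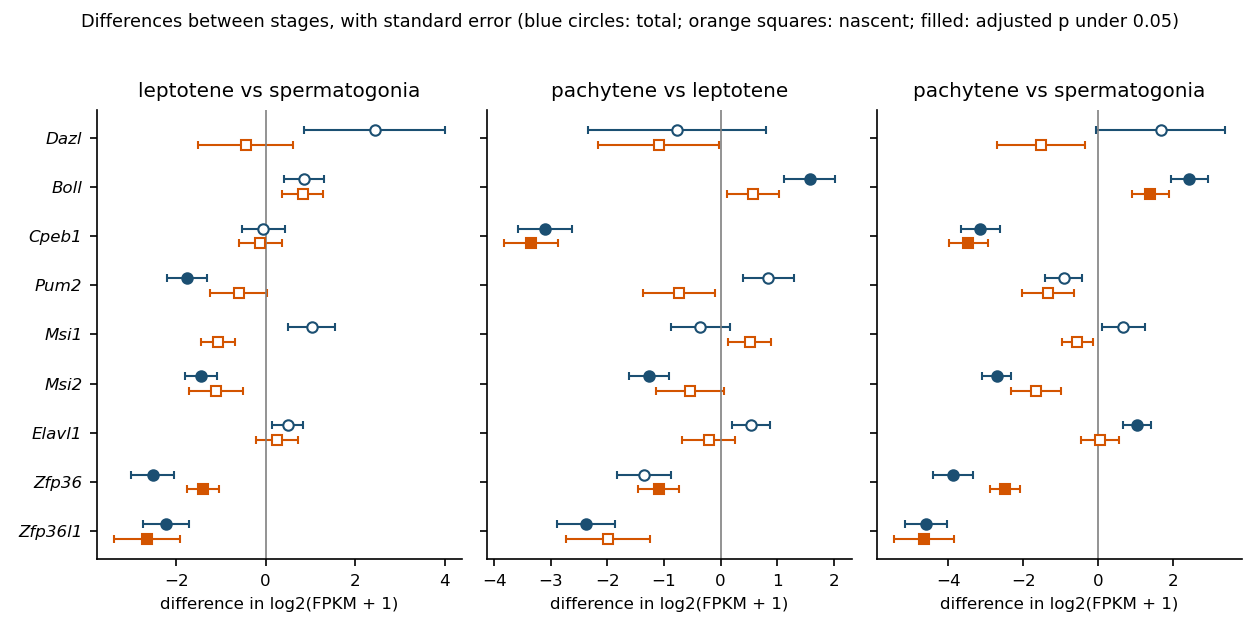
Difference in log2(FPKM + 1) between stages for the 9 genes, with the standard error of the limma fit, in total RNA (circles) and nascent RNA (squares); filled symbols have an adjusted p under 0.05. In pachytene against spermatogonia Zfp36l1, Zfp36 and Cpeb1 lie below 0 and Boll above 0 with filled symbols in both assays.

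Dazl, a germ cell gene needed for spermatogonial differentiation and meiosis, reached the highest level of the 9. Total RNA was 5.97, 6.62 and 8.42 FPKM in the spermatogonia libraries, 2.30 in preleptotene, 259, 45, 1.80 and 294 in leptotene libraries 1 to 4, and 13.8, 31.2, 32.0 and 29.4 in pachytene. Leptotene libraries 1 and 4 were far above every other library, library 2 was close to pachytene, and library 3 was the lowest of all 12. The mean over animals was 7.36 FPKM (SD 1.502, n = 2) in spermatogonia, 149 (SD 146, n = 3) in leptotene and 26.6 (SD 5.27, n = 2) in pachytene. With that spread no comparison passed: leptotene minus spermatogonia was 2.44 ± 1.58 (limma, adjusted p 0.432) and pachytene minus leptotene was -0.77 ± 1.58 (adjusted p 0.719).

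For Dazl the outcome of the tests rests on single libraries. Without leptotene library 3 the rise into leptotene was 4.44 ± 0.52 (limma, adjusted p 0.0051) and without libraries 2 and 3 it was 5.06 ± 0.26 (adjusted p 0.0049). The fall from leptotene to pachytene was then -3.40 ± 0.26 (limma, adjusted p 0.0003), and pachytene stood 1.67 ± 0.26 above spermatogonia (adjusted p 0.0026). With the animal as a block, leptotene exceeded spermatogonia by 4.44 ± 0.56 (limma, adjusted p 0.0003), and pachytene minus leptotene changed sign to 3.48 ± 0.80 (adjusted p 0.0074) and pachytene minus spermatogonia, their sum, was 7.92 ± 0.98 (adjusted p 0.0005). In that fit the second difference rests on IND4, the only animal with both stages, whose leptotene library was library 3. The 2 animals with both spermatogonia and leptotene had 8.42 FPKM beside 259 and 45 (IND1), and 5.97 and 6.62 beside 294 (IND3).

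Nascent Dazl RNA had another order. It was 12.2, 172 and 245 FPKM in spermatogonia, 256 in preleptotene, 238, 94.2, 12.8 and 242 in leptotene, and 15, 42.2, 54.4 and 49.8 in pachytene. Spermatogonia libraries 2 and 3 and the preleptotene library, at 172 to 256 FPKM, lay near leptotene libraries 1 and 4, whereas these 2 stages were at most 8.42 FPKM in total RNA. The tables of total and nascent RNA were normalised separately and come from different animals, so the levels are set side by side only. Nascent leptotene minus spermatogonia was -0.45 ± 1.07 (limma, adjusted p 0.843) and pachytene minus leptotene -1.09 ± 1.07 (adjusted p 0.458). Without leptotene libraries 2 and 3 the latter was -2.69 ± 0.75 (limma, adjusted p 0.0214). The difference between the assays in the change from spermatogonia to leptotene was 2.88 ± 2.19 (limma interaction, unadjusted p 0.208).

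**Figure D3:**
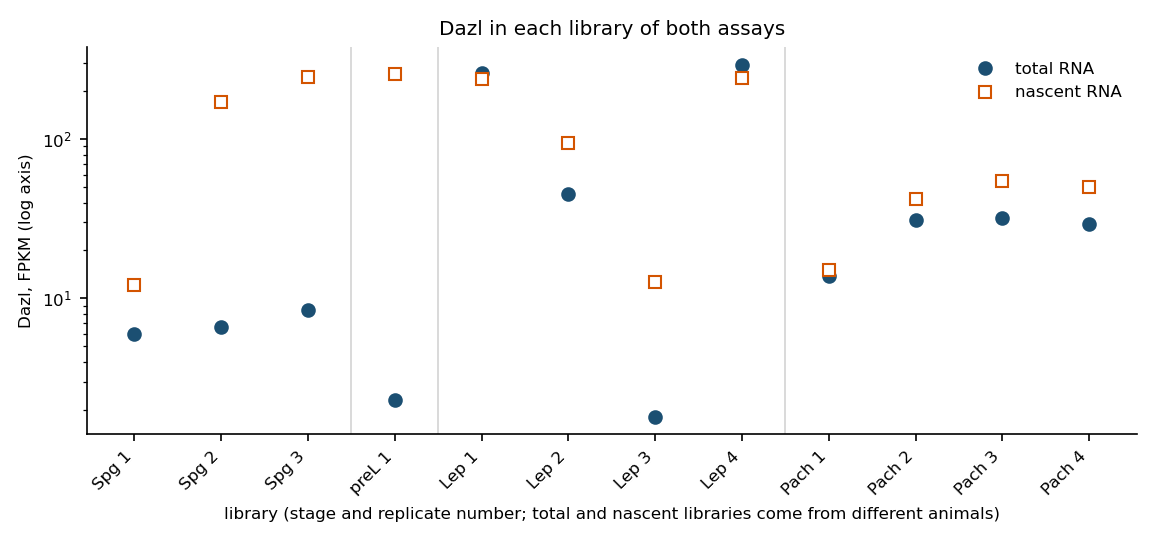
Dazl in FPKM on a log axis in each library of total RNA (filled circles) and nascent RNA (open squares). In total RNA leptotene libraries 1 and 4 lie at 259 and 294 and library 3 at 1.80; in nascent RNA spermatogonia 2 and 3 and preleptotene lie at 172 to 256.

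Boll, the most ancient member of the DAZ family and needed for spermatid development, rose through meiosis. Total RNA was 2.33, 1.11 and 3.83 FPKM in spermatogonia, 5.82 in preleptotene, 6.52, 14.0, 3.16 and 5.14 in leptotene, and 17.8, 19.0, 16 and 20.9 in pachytene. Every pachytene library was above every leptotene and spermatogonia library, and the latter stages overlapped through leptotene library 3. Pachytene was higher than leptotene by 1.58 ± 0.45 (limma, adjusted p 0.0236) and higher than spermatogonia by 2.43 ± 0.50 (adjusted p 0.0038), a ratio of mean FPKM of 6.64. Nascent RNA was 1.56, 2.37 and 4.28 FPKM in spermatogonia, 10.1 in preleptotene, 8.72, 7.57, 3.52 and 7.25 in leptotene, and 9.44, 7.6, 6.47 and 16.1 in pachytene. There the pachytene libraries overlapped leptotene, and exceeded spermatogonia by 1.39 ± 0.50 (limma, adjusted p 0.0438; 0.0674 with the animal as a block).

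Cpeb1 fell between leptotene and pachytene. Total RNA was 13.5, 11.8 and 19.7 FPKM in spermatogonia, 18.5 in preleptotene, 21.9, 2.15, 23.7 and 19.2 in leptotene, and 0.224, 1.01, 1.60 and 0.985 in pachytene. Only library 2 among the leptotene libraries was low, and all 4 pachytene libraries were below it. The fall from leptotene to pachytene was -3.10 ± 0.48 (limma, adjusted p 0.0032), from a mean of 18.3 FPKM (SD 5.90, n = 3) to 0.954 (SD 0.0629, n = 2), a 19.2-fold ratio. Leptotene and spermatogonia differed by -0.05 ± 0.48 (limma, adjusted p 0.962). Nascent RNA was 12.4, 16.5 and 26.7 FPKM in spermatogonia, 22.0 in preleptotene, 25.3, 4.59, 28.1 and 18.4 in leptotene, and 0.374, 0.532, 2.20 and 0.786 in pachytene. The nascent fall from leptotene to pachytene was -3.35 ± 0.48 (limma, adjusted p 0.0009), and the difference between the 2 assays in that fall was 0.25 ± 0.70 (interaction, adjusted p 0.969).

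Of 4 mRNAs known as DAZL or CPEB1 targets, the axial element gene Sycp3, the transverse filament gene Sycp1, the helicase gene Ddx4 and the germline gene Tex19.1, 1 was higher in leptotene than in spermatogonia in total RNA (Tex19.1, 1.82 ± 0.44, limma adjusted p 0.034). By pachytene 2 of 4 fell, Tex19.1 by -2.16 ± 0.44 and Sycp1 by -1.65 ± 0.42 (adjusted p 0.0065 and 0.015). Over all genes, 0.286% were higher in leptotene than in spermatogonia, and 17.7% were lower in pachytene than in leptotene. Tex19.1 averaged 3.47 FPKM in spermatogonia, 18.3 in leptotene and 3.74 in pachytene in total RNA, and 13.1, 12.8 and 6.01 in nascent RNA. The median over the 4 was 1.06 and then -1.22 in those comparisons of total RNA, beside -0.07 and -0.07 over all genes. In nascent RNA Sycp1 and Sycp3 fell from leptotene to pachytene, by -2.68 ± 0.43 and -1.15 ± 0.38, where 15.4% of all genes were lower. With 4 genes on the list, these counts are not read as a result about it.

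Pum2 was highest before meiosis and lowest in leptotene in total RNA. Its levels were 16, 18.4 and 22.8 FPKM in spermatogonia, 26.1 in preleptotene, 7.42, 11.7, 2.62 and 5.09 in leptotene, and 10.2, 9.002, 10.01 and 10.8 in pachytene. All leptotene and pachytene libraries were below all spermatogonia libraries, and leptotene and pachytene overlapped. Leptotene was lower than spermatogonia by -1.77 ± 0.45 (limma, adjusted p 0.0395; -1.39 and 0.0854 with the animal as a block), a 3.47-fold ratio of means. Pachytene minus leptotene was 0.85 ± 0.45 (limma, adjusted p 0.159) and pachytene minus spermatogonia was -0.92 ± 0.49 (adjusted p 0.145; 0.0217 without leptotene libraries 2 and 3). Nascent RNA was 20.9, 20.2 and 31.5 FPKM in spermatogonia, 41.2 in preleptotene, 47.9, 12.5, 31.6 and 5.32 in leptotene, and 11.3, 6.11, 7.39 and 15.2 in pachytene. The nascent leptotene libraries ran from the highest to the lowest of the 12, and no nascent comparison of Pum2 passed.

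Msi2 fell at each step in total RNA, while no such comparison of Msi1 passed. Msi2 total RNA was 11.1, 13.9 and 7.11 FPKM in spermatogonia, 3.53 in preleptotene, 2.64, 1.47, 4.29 and 2.53 in leptotene, and 0.810, 0.563, 0.366 and 0.658 in pachytene. The 3 stages did not overlap. The differences were -1.45 ± 0.36 from spermatogonia to leptotene (limma, adjusted p 0.0372) and -1.27 ± 0.36 from leptotene to pachytene (adjusted p 0.0231; 0.0533 with the animal as a block), and mean FPKM was 16.4 times higher in spermatogonia than in pachytene. Nascent Msi2 was 2.29, 3.05 and 11.8 FPKM in spermatogonia, 2.07 in preleptotene, 1.18, 1.24, 5.32 and 1.247 in leptotene, and 1.30, 0.517, 1.38 and 1.65 in pachytene. Spermatogonia library 3 and leptotene library 3 were the high ones, and no nascent comparison passed (pachytene minus spermatogonia -1.66 ± 0.66, limma, adjusted p 0.0626, or -3.28 and 0.0077 with the animal as a block). Nascent leptotene minus spermatogonia was -1.12 (limma, adjusted p 0.287), or -1.62 and 0.0361 with the block.

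Msi1 was 1.03, 1.29 and 6.41 FPKM in spermatogonia total RNA, 7.33 in preleptotene, 8.5, 10.4, 5.73 and 6.75 in leptotene, and 9.17, 7.59, 1.29 and 7.26 in pachytene. Its 3 low libraries were spermatogonia 1 and 2, from the same animal, and pachytene 3. Nascent Msi1 had the opposite order, with 8.38, 8.73 and 6.80 FPKM in spermatogonia, 3.19 in preleptotene, 2.96, 4.75, 3.55 and 2.19 in leptotene, and 5.61, 4.11, 4.02 and 5.97 in pachytene. All nascent leptotene libraries were below all nascent spermatogonia libraries, by -1.07 ± 0.38 (limma, adjusted p 0.111; -1.28 ± 0.30 and 0.0158 without leptotene libraries 2 and 3). The difference between the assays in that change was 2.10 ± 0.65 (interaction, unadjusted p 0.0063, adjusted p 0.551).

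Elavl1 rose by a small margin over the whole series of stages. Total RNA was 10.2, 11.4 and 13.2 FPKM in spermatogonia, 19.6 in preleptotene, 19.12, 20.7, 13.6 and 18.8 in leptotene, and 21.8, 30.1, 20.4 and 31.4 in pachytene. Every leptotene and pachytene library was above every spermatogonia library. Pachytene exceeded spermatogonia by 1.03 ± 0.37 (limma, adjusted p 0.0442; 0.138 with the animal as a block), a 2.16-fold ratio, and neither single step passed. Nascent RNA was 11.2 to 21.2 FPKM in spermatogonia, 27.8 in preleptotene, 15.2 to 24.5 in leptotene and 11.1 to 34.8 in pachytene, with all 3 stages overlapping. Its gene lies on chr8:4285382-4325413 (mm10), minus strand, and overlaps Ccl25 on the opposite strand.

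From spermatogonia to pachytene, Zfp36l1 and Zfp36 had the largest falls of the 9 in total RNA. Zfp36, which encodes tristetraprolin, was 23.2, 29.4 and 8.99 FPKM in spermatogonia total RNA, 2.43 in preleptotene, 1.31, 0.529, 3.20 and 1.98 in leptotene, and 0.0729, 0.189, 0.169 and 0.0611 in pachytene. Zfp36l1, a paralog with the same tandem zinc fingers, was 33.2, 67.7 and 19.7 FPKM in spermatogonia, 9.68 in preleptotene, 5.48, 1.61, 10.9 and 5.41 in leptotene, and 0.395, 0.871 and 0.133 in 3 pachytene libraries, with library 1 listed at 0. In both genes the 3 stages did not overlap in total RNA.

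From spermatogonia to leptotene Zfp36 fell by -2.52 ± 0.48 (limma, adjusted p 0.0121) and Zfp36l1 by -2.22 ± 0.51 (adjusted p 0.0272). From leptotene to pachytene Zfp36l1 fell by -2.37 ± 0.51 (limma, adjusted p 0.0080), while Zfp36 differed by -1.35 ± 0.48 (adjusted p 0.0520; -1.90 and 0.0348 with the animal as a block). Against spermatogonia, pachytene was lower by -4.59 ± 0.56 in Zfp36l1 and -3.88 ± 0.53 in Zfp36 (adjusted p 0.0009 and 0.0011). Mean FPKM fell from 35.1 (SD 21.8, n = 2) to 0.350 (SD 0.121, n = 2) in Zfp36l1 and from 17.6 (SD 12.2) to 0.123 (SD 0.00266) in Zfp36.

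In nascent FPKM both genes were also highest in spermatogonia and lowest in pachytene. Nascent Zfp36 was 7.25, 6.28 and 4.25 FPKM in spermatogonia, 2.28 in preleptotene, 1.83, 0.384, 1.49 and 1.85 in leptotene, and 0.132, 0.287, 0.0748 and 0.0568 in pachytene. Nascent Zfp36l1 was 25.9, 26.0 and 30.7 FPKM in spermatogonia, 4.92 in preleptotene, 2.18, 0.386, 16.1 and 1.75 in leptotene, and 0.183, 0.253, 0.130 and 0.0989 in pachytene. Leptotene library 3 was the high one for Zfp36l1 and library 2 the low one for both. From spermatogonia to leptotene nascent Zfp36 fell by -1.40 ± 0.36 and Zfp36l1 by -2.66 ± 0.74 (limma, adjusted p 0.0291 and 0.0416); with the animal as a block the adjusted p of Zfp36 was 0.0509. From leptotene to pachytene Zfp36 fell by -1.09 ± 0.36 (limma, adjusted p 0.0406, or 0.377 with the animal as a block). Over 26 refits this Zfp36 difference ran from -2.70 to -0.41. Zfp36l1 differed by -1.99 ± 0.74 between these stages (limma, adjusted p 0.0617, or -3.87 and 0.0003 with the block).

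Markers of somatic testis cells were also highest in spermatogonia, though the Leydig and blood sums of leptotene and pachytene overlapped. In total RNA the summed level of 10 Sertoli cell markers was 170 to 233 FPKM in spermatogonia libraries, 9.21 to 40.4 in leptotene and 2.30 to 4.68 in pachytene, where Rhox5 and Cst12 were at 0. The sum of 6 Leydig cell markers was 173 to 423, 2.002 to 20.1 and 4.47 to 7.76, with Lhcgr at 0 in pachytene, and that of 7 peritubular and vascular markers was 215 to 490, 2.03 to 18.5 and 0.455 to 1.35. The sum of 7 blood and macrophage markers was 33.2 to 39.4, 2.10 to 6.26 and 2.39 to 3.53, with Adgre1 at 0 in leptotene. Within leptotene in total RNA, library 3 had the highest and library 2 the lowest Zfp36, Zfp36l1 and Msi2, and the highest and lowest Sertoli and peritubular sums (40.4 and 9.21, 18.5 and 2.03 FPKM). The Leydig sum was highest in library 3 but lowest in library 1 (2.002 FPKM, against 4.15 in library 2). The blood sum was lowest in library 2 but highest in library 1 (6.26 FPKM, against 5.47 in library 3). In nascent RNA Zfp36l1 and the Sertoli sum kept both extremes in libraries 3 and 2. Nascent Zfp36 was highest in library 4, and nascent Msi2 and the peritubular sum were lowest in library 1. Germ cell markers changed too. In total RNA the sum of 7 markers of undifferentiated spermatogonia was 78.2 to 189 FPKM in spermatogonia, 45.5 to 63.7 in leptotene and 33.5 to 45.6 in pachytene. Not all 7 fell: in pachytene against spermatogonia 6 were lower and 1 was higher. Of all genes, 29.7% were lower and 23.1% higher there. That of 6 markers of differentiating spermatogonia was 103 to 131, 98.7 to 152 and 3.13 to 18.0. The part of somatic RNA in the levels of Zfp36, Zfp36l1 and Msi2, and that of RNA from undifferentiated spermatogonia, was not tested.

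**Figure D4:**
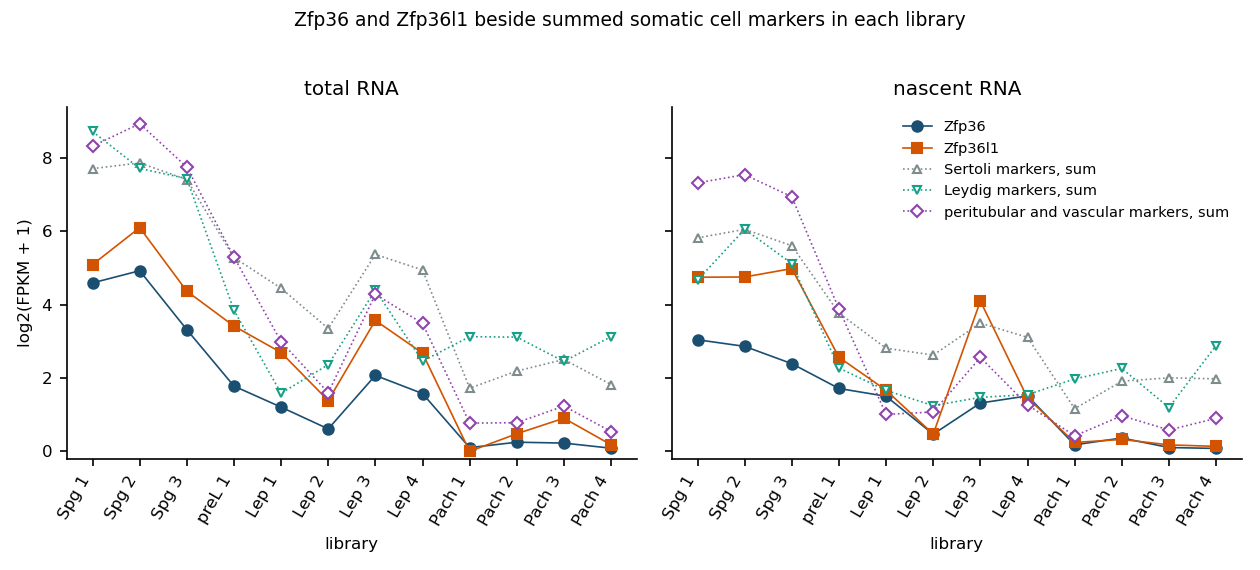
Zfp36 and Zfp36l1 beside the summed FPKM of Sertoli, Leydig, and peritubular and vascular markers, as log2(FPKM + 1), in each library of total RNA (left) and nascent RNA (right). All are highest in the 3 spermatogonia libraries of each assay. In total RNA the Sertoli and peritubular sums and both Zfp36 genes share their maximum (library 3) and minimum (library 2) within leptotene. The Leydig sum shares the maximum only.

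Immediate-early genes, the transiently induced class to which Zfp36 belongs, were lower as well. Of 20 on the list and tested in total RNA, 13 were lower and none higher in leptotene than in spermatogonia (17 at an unadjusted p under 0.05), where 9.52% of all genes were lower, with a median of -1.84 beside -0.07 over all genes. In pachytene against spermatogonia 19 of 20 were lower, the AP-1 subunit gene Junb by -5.27 ± 0.58 and the zinc finger gene Egr1 by -4.56 ± 0.54 (limma, adjusted p 0.0009 for both). In that comparison 29.7% of all genes were lower. In total RNA 18 of the 20 would pass the filter on low values without the spermatogonia libraries. The other 2, Atf3 and Myc, passed through spermatogonia alone, so the filter favours a fall from that stage for them. They are included in each total RNA count given here and in the median. In nascent RNA 19 passed it, 10 of them through spermatogonia alone, so no nascent count is given. Without leptotene libraries 2 and 3, 15 of 20 were lower in leptotene in total RNA, where 3592 of 18976 genes were lower.

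Of 10 AU-rich mRNAs known as ZFP36 targets, 7 passed the filter in total RNA, 3 of them (Tnf, Myc and Cxcl1) through spermatogonia alone. In nascent RNA 5 passed, 4 of them through spermatogonia alone, so no count over the list is given. The other 4 in total RNA, in the order spermatogonia, leptotene and pachytene, had mean levels of 16.2, 1.35 and 0.121 FPKM for Ier3, 62.5, 4.49 and 0.552 for Junb, 13.2, 3.34 and 0.324 for Dusp1, and 14.7, 7.25 and 0.412 for Fos. Leptotene was lower than spermatogonia by -2.92 ± 0.38 for Ier3, -3.61 ± 0.53 for Junb and -1.73 ± 0.40 for Dusp1 (limma, adjusted p 0.0038, 0.0046 and 0.027), and Fos differed by -0.36 ± 0.64 (adjusted p 0.790). Fos, Junb, Myc, Ier3 and Dusp1 are on this list and on the immediate-early list. The somatic marker sums and that of undifferentiated spermatogonia, given above, also fell from spermatogonia to pachytene, and their part was not tested.

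Among 8 paralogs of these genes, no call was made between leptotene and spermatogonia in either assay (1 in total and 0 in nascent RNA at an unadjusted p under 0.05). Between leptotene and pachytene in total RNA, 3 of the 6 that passed the filter were lower, where 17.7% of all genes were. Zfp36l2 fell by -2.67 ± 0.46 (limma, adjusted p 0.0039), from a mean of 15.4 FPKM in leptotene to 1.31 in pachytene, and nascent Zfp36l2 fell by -2.15 ± 0.60 (adjusted p 0.020). Cpeb3 fell by -0.80 ± 0.27 and the HuR relative Elavl3 by -1.21 ± 0.34 (adjusted p 0.044 and 0.022). Elavl2, another HuR relative, was lower in pachytene than in spermatogonia by -3.24 ± 0.62 (limma, adjusted p 0.0028), the direction opposite to Elavl1.

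Of 21 partners and cofactors in total RNA, 6 fell and 4 rose from leptotene to pachytene, with a median of 0.11; of all genes 17.7% fell and 22.4% rose, so the counts are not read as a result about this list. The deadenylase genes Cnot6l (-2.17 ± 0.36) and Parn (-1.96 ± 0.31), the Pumilio partner Nanos1 (-2.04 ± 0.42), the poly(A) polymerase gene Papd4 (-1.10 ± 0.31), Pabpc4 (-1.79 ± 0.37) and Dazap2 (-1.36 ± 0.38) were lower. The poly(A)-binding protein gene Pabpc1 (2.62 ± 0.45), the DAZ-associated genes Dazap1 (1.97 ± 0.55) and Dzip1 (1.86 ± 0.49), and the deadenylase scaffold Cnot1 (1.13 ± 0.40) were higher. Pabpc1 reached a mean of 327.9 FPKM in pachytene from 73.8 in leptotene. From spermatogonia to leptotene 1 of 21 was called, Mapkapk2, the kinase that phosphorylates tristetraprolin, at -1.49 ± 0.32 (limma, adjusted p 0.020) in total and -1.61 ± 0.44 (adjusted p 0.037) in nascent RNA. Of all genes, 9.81% were called there in total and 10.6% in nascent RNA, so this count is not read as a result either.

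The total-to-nascent comparison called none of the 9 genes, as the interaction of assay and stage in limma, in either step (0.10% and 0.0752% of 19955 genes were called). At an unadjusted p under 0.05 there was 1 for spermatogonia to leptotene, Msi1, and 0 for leptotene to pachytene. The estimates between leptotene and spermatogonia ran from -1.16 ± 0.86 for Pum2 to 2.88 ± 2.19 for Dazl, and between pachytene and leptotene from -0.87 ± 0.65 for Msi1 to 1.59 ± 0.86 for Pum2. Standard errors ran from 0.58 to 2.19, so the absence of calls does not show that the 2 assays changed alike. Msi1, at 2.10 ± 0.65 between leptotene and spermatogonia, did not pass after adjustment over all genes (limma interaction, adjusted p 0.551).

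The authors also deposited a 5S-corrected nascent signal for 9 of the 12 nascent libraries, without leptotene libraries 2 and 3 and pachytene library 3, in which each library is multiplied by 1 constant (0.441 to 5.08). Before testing, all these libraries were also multiplied by 1 common factor, which set their mean sum to that of the nascent FPKM. Tested this way, all 9 genes had a negative difference between leptotene and spermatogonia. Of these, 4 were called lower, where 27.2% of all genes were: Zfp36l1 (-4.59 ± 0.75), Msi2 (-2.66 ± 0.67), Msi1 (-2.61 ± 0.82) and Zfp36 (-2.41 ± 0.68). The median of the 9 was -2.19, beside -1.08 over all genes, so a negative sign alone is not particular to these genes. Between leptotene and pachytene Boll (2.34) and Msi1 (2.53) rose and Cpeb1 (-2.33) fell, where 31.1% of all genes rose and 1.72% fell. In the corrected signal as the authors gave it, Cpeb1 was 48.3, 44.8 and 25.2 in spermatogonia, 10.3 in preleptotene, 14.8 and 8.12 in leptotene, and 0.658, 2.71 and 1.79 in pachytene. Msi1 was 32.7, 23.7 and 6.41 in spermatogonia, 1.49 in preleptotene, 1.74 and 0.965 in leptotene, and 9.87, 20.9 and 13.6 in pachytene. Zfp36 and Zfp36l1 were again highest in spermatogonia, but their leptotene and pachytene libraries overlapped. Zfp36 was 1.08 and 0.817 in leptotene beside 0.231, 1.46 and 0.129 in pachytene. Zfp36l1 was 1.28 and 0.769 beside 0.321, 1.29 and 0.225.

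The genes whose log2(FPKM + 1) over the 12 total libraries was most like each member were named as a description; libraries of a stage share that stage, so high correlations are common. Cpeb1 was most like Fzd3 (r = 0.997) and Pank3 (0.996), which also followed it over the 12 nascent libraries (0.968 and 0.975). Zfp36 was most like Cited2 (0.995, and 0.926 in nascent RNA) and Reep3 (0.995 and 0.864), and Zfp36l1 was most like Dynlt3 (0.995 and 0.964) and Atp10a (0.993 and 0.957). Msi2 was most like Reps2 (0.992 and 0.676) and Zfp395 (0.991 and 0.753), Boll like Tubb4b (0.987 and 0.757) and Atp6v1d (0.986 and 0.051), and Elavl1 like Sepsecs (0.981 and 0.930) and Wdr31 (0.979 and 0.648). Dazl was most like Tpx2 (0.928 and 0.382) and the meiotic telomere gene Terb2 (0.919 and 0.872). Pum2 (Emc10, 0.855 and 0.717; E2f6, 0.844 and 0.628) and Msi1 (Rbm46, 0.861 and -0.068; Zfp276, 0.855 and -0.363) had the least close matches.

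On mm10 with GENCODE M21 the other genes lie at chr17:50279395-50293636 (Dazl), chr1:55248658-55363469 (Boll), chr7:81347026-81455465 (Cpeb1), chr12:8674134-8752581 (Pum2), chr5:115429599-115455698 (Msi1), chr11:88339382-88718513 (Msi2), chr7:28376784-28380253 (Zfp36) and chr12:80107754-80113013 (Zfp36l1), with Pum2 and Msi1 on the plus strand. Dazl and Pum2 overlap no other annotated gene. The other 7 overlap at least 1 gene on the opposite strand, and whether the authors' counting used the strand of the directional libraries is not given in the sources used here, so reads of the partners may be included.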

How the data were processed

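Expression in total and in nascent RNA was deposited by the authors as FPKM. The submitters' processing notes name STAR 2.5.2a, StringTie and the mm10 build; the annotation, the StringTie version and the use of strand are not given in the sources used here. The third table holds the 5S-corrected signal, which the authors deposited for 9 nascent libraries and which equals the nascent FPKM times 1 constant per library. Per the labels' protocols, spike-ins were added after extraction, and total libraries alone were depleted of ribosomal RNA. Spike-in rows were left out of the tests.

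The members and gene lists were chosen with earlier results of these data known. A value of 1 FPKM was added before log2, and every gene reaching 1 FPKM in 2 or more libraries was tested. The test was limma 3.58.1 with its trended empirical Bayes step, under R 4.3.3, on the 8 animal-by-stage means per assay. The code was tested on simulated data. The labels' animal identifiers pair the samples: 2 animals per assay gave spermatogonia and leptotene, and 1 gave leptotene and pachytene. A fit with the animal as a block was an alternative, and it leaves 1 residual degree of freedom per assay. All 9 genes are given, with the 2 most correlated genes each; other genes come from the fixed lists. 1 gene of the list of paralogs is not reported here and was left out of that list's counts. Their named members are those called in the comparison described or, in long lists, examples chosen after their values were seen. Further alternatives were the pseudocount, the low-value filter, the scaling, the units, the samples in the fit and leaving out libraries or animals. Leaving out leptotene libraries 2 and 3 together was chosen after seeing the data. Depth limits the low levels, and no interval on counts could be given. Figures and tables used Python 3.11.15, numpy 2.4.6, pandas 2.3.3 and matplotlib 3.10.9.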

Additional observations from a re-analysis of the deposited data

Results flagged for a closer look

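Among 36 groups of 4 libraries (9 genes, leptotene and pachytene, 2 assays), 3 had a library far from the other 3 by Dixon's criterion; chance alone marks about 1 in 20 such groups. Dazl in total RNA was 13.8 FPKM in pachytene library 1, below the other pachytene libraries at 29.4 to 32.0. Nascent Msi2 was 5.32 FPKM in leptotene library 3, above the other leptotene libraries at 1.18 to 1.247. Nascent Zfp36l1 was 16.1 FPKM in the same library, above the others at 0.386 to 2.18.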

How the results depend on the processing

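The number of the 9 genes called depended on the setting more than the direction did. Of 22 called changes, none had the opposite sign in 558 refits, 118 refits no longer passed, and 4 changes passed in every refit: the falls of Zfp36l1, Cpeb1, Zfp36 and Msi2 from spermatogonia to pachytene in total RNA. Of 1557 refits of changes not called, 116 had the opposite sign and 69 passed. With the animal as replicate block, which pairs stages of an animal, 1 of these both passed and had the opposite sign, Dazl from leptotene to pachytene in total RNA at 3.48; the counts of called genes under the block were 4, 5 and 6 in total and 2, 2 and 4 in nascent RNA, beside 4, 4 and 6 and 2, 2 and 4 without it. Calls gained or lost with the block are given beside each gene in the results.

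For leptotene against spermatogonia in total RNA, 4 genes were called, but 2 with a pseudocount of 0.1, 1 without a filter on low values, 1 after centring on the median and 1 with only the 2 stages compared in the fit. For nascent RNA the count of 2 became 0 with a pseudocount of 0.1, 1 without the filter, 0 after scaling to spike-ins, 0 after median centring, 0 with only the 2 stages, 4 in the libraries with a 5S-corrected counterpart and 4 in the 5S-corrected table. From leptotene to pachytene, 4 in total RNA became 2 without the filter. The 2 in nascent RNA became 1 without the filter, 0 after spike-in scaling, 1 after median centring, 5 in the libraries with a 5S-corrected counterpart and 4 without leptotene libraries 2 and 3. From spermatogonia to pachytene, 4 in nascent RNA became 0 after spike-in scaling. After spike-in scaling 0 of 21415 genes were called in each nascent comparison, so those counts of 0 say nothing particular about the members. The cause was not tested.

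Leaving out 1 library or animal gave 0 to 4 calls for leptotene against spermatogonia, 0 to 6 for pachytene against leptotene and 4 to 7 for pachytene against spermatogonia in total RNA, and 0 to 3, 1 to 3 and 3 to 6 in nascent RNA. The total-to-nascent comparison gave 0 to 1 and 0. The count of 0 in total RNA came without animal IND3 for the first comparison and without leptotene library 1 or animal IND4 for the second. In nascent RNA the 0 for the first comparison came without spermatogonia library 3, without leptotene library 1, or without animal IND5, IND6 or IND7. Without leptotene library 1, of 19005 genes 8 were called higher and 1 lower between leptotene and pachytene in total RNA. That loss was therefore not particular to the members. Leaving out an animal of a stage with 2 leaves 1 there, so a count of 0 from such a fit is not read as a result. With 2 or 3 animals per stage, precision is limited, and levels under 1 FPKM count little on this scale.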
